A study of Mus musculus with 48 samples.

Results

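The genes examined here were 5 genes at which the A/J or the C57BL/6J (B6) strain of mouse carries a known null, deletion or duplication allele: Nnt, Hc, H2-Ea (also listed as H2-Ea-ps), Glo1 and Dysf. They were chosen by name, with earlier results of these data known, and every probe annotated to one of them was read. These were 8 probes, 4 of Nnt and 1 of each other gene, among 24613 probes and 15967 named genes on the Illumina MouseRef-8 array. Male A/J and B6 mice had received, by pharyngeal aspiration on 4 occasions, gas metal arc-mild steel (GMA-MS) or gas metal arc-stainless steel (GMA-SS) welding fume, each at 5 mg/kg, or phosphate buffered saline (sham), and whole lungs were taken after 28 days (called 4 weeks here) or 16 weeks of recovery. Each of the 12 groups of strain, exposure and time held 4 arrays, and mice were 4 weeks of age at purchase. Both strains are inbred and carry many other differences, so a strain comparison does not isolate the named allele. Each strain difference is given as A/J minus B6 on the log2 scale, with its standard error (SE), from limma fitted to all probes that passed a detection filter.

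The 5 genes act in unrelated processes. Nnt encodes the nicotinamide nucleotide transhydrogenase of the inner mitochondrial membrane, which makes NADPH from NADH, and B6 mice from the Jackson Laboratory lack several of its exons. Hc encodes complement C5, the precursor of the C5a chemoattractant and of the first protein of the membrane attack complex, and A/J mice carry a small frameshift deletion in it. H2-Ea encodes the alpha chain of the class II antigen-presenting molecule I-E, and the H2b haplotype of B6 has a deletion in its promoter. Glo1 encodes glyoxalase 1, which removes methylglyoxal with glutathione, and A/J mice carry a duplicated segment of chromosome 17 that holds it. Dysf encodes dysferlin, a protein of plasma membrane repair, and A/J mice carry a retrotransposon insertion in one of its introns. Which stretch of each transcript a probe binds was not known here, so a probe may lie outside a deleted part.

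The H2-Ea allele of B6 is a promoter allele, and class II promoters share short conserved boxes. The Y box, bound by NF-Y, was therefore looked for in RefSeq promoters (GRCm38.p6, 250 bases before to 50 bases after a gene start) as the letters TGATTGG on either strand. It was found in 7 of the 8 class II list genes that had a promoter in the table, with 9 promoters, and in 2568 of all 32851 promoters (7.82%). The first count is of genes and the other of promoters. The box was chosen because it is known in class II promoters, so no excess is read from these counts. H2-Ea itself had no promoter there, and no other motif was searched. For reference, 3 class II genes measured beside H2-Ea are shown with 60 bases of sequence, 5′ to 3′ on the strand of the gene, the Y box letters in capitals. H2-Aa lies at chr17:34287857-34287916 on the minus strand, H2-Eb1 at chr17:34305763-34305822 on the plus strand and H2-Ob at chr17:34238803-34238862 on the plus strand.
H2-Aa: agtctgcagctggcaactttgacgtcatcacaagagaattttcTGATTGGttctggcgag
H2-Eb1: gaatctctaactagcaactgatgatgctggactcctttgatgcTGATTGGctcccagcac
H2-Ob: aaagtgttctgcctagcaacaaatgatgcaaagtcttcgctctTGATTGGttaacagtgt
A match of letters is a description of the reference sequence, which is that of B6, and not a bound site.

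The arrays were comparable in depth. Each array detected 9990 to 11421 probes at 4 weeks and 10594 to 11567 at 16 weeks (detection p-value under 0.01), and the median probe was read from 34 to 36 beads. The lowest intensity that counted as detected on an array was 187 to 266.6 (median 234.5) at 4 weeks and 138.4 to 232.4 (median 174.9) at 16 weeks. All 5 epithelial markers of lung (surfactant proteins and Scgb1a1) were detected on every array. All 3 measured B cell markers were lower in A/J in all 6 strain comparisons, and the mean log2 level of the list was 8.66 to 9.76 in A/J against 9.65 to 10.37 in B6 at 4 weeks and 8.72 to 9.50 against 9.62 to 10.05 at 16 weeks. Of the 3, Ms4a1 was detected on 0 A/J arrays. Both macrophage markers were higher in A/J in all 6 comparisons, with mean log2 levels of 10.57 to 11.30 against 9.59 to 10.30 at 4 weeks and 10.05 to 10.69 against 9.29 to 9.71 at 16 weeks. The skeletal muscle list spread over 8.33 to 11.75 in A/J and 7.58 to 11.76 in B6 at 4 weeks. In whole lung, fewer cells of a type and less RNA per cell cannot be told apart.

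Hc, H2-Ea and Glo1 passed the filter at both times and Dysf at 16 weeks, and each of these differed between the strains wherever it was tested. At 4 weeks 3 of 3 tested probes were called at a limma adjusted p under 0.05 in each exposure, 2 higher and 1 lower in A/J, where 18.2% of all 11624 tested probes were called in sham, 21.1% in GMA-MS and 18.9% in GMA-SS lungs. At 16 weeks 4 of 4 were called in each exposure, 2 higher and 2 lower in A/J, where 26.8%, 25.2% and 26.5% of 11881 probes were called in sham, GMA-MS and GMA-SS lungs. The arrays of the strains did not overlap for any of these probes in any comparison. The share of all tested probes without overlap was not computed, so nothing particular to the members is read from this. H2-Ea passed the filter only through A/J arrays, and Dysf at 16 weeks only through B6 arrays, so that their differences, and their place in these counts, were in part fixed by the filter. Hc and Glo1 were detected on all 48 arrays. The 4 Nnt probes passed nowhere. With the beadchip as a block, all calls of the members held and the counts over all probes at 4 weeks rose to 3556, 4167 and 3616 from 2121, 2455 and 2194 in sham, GMA-MS and GMA-SS lungs.

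**Figure D1:**
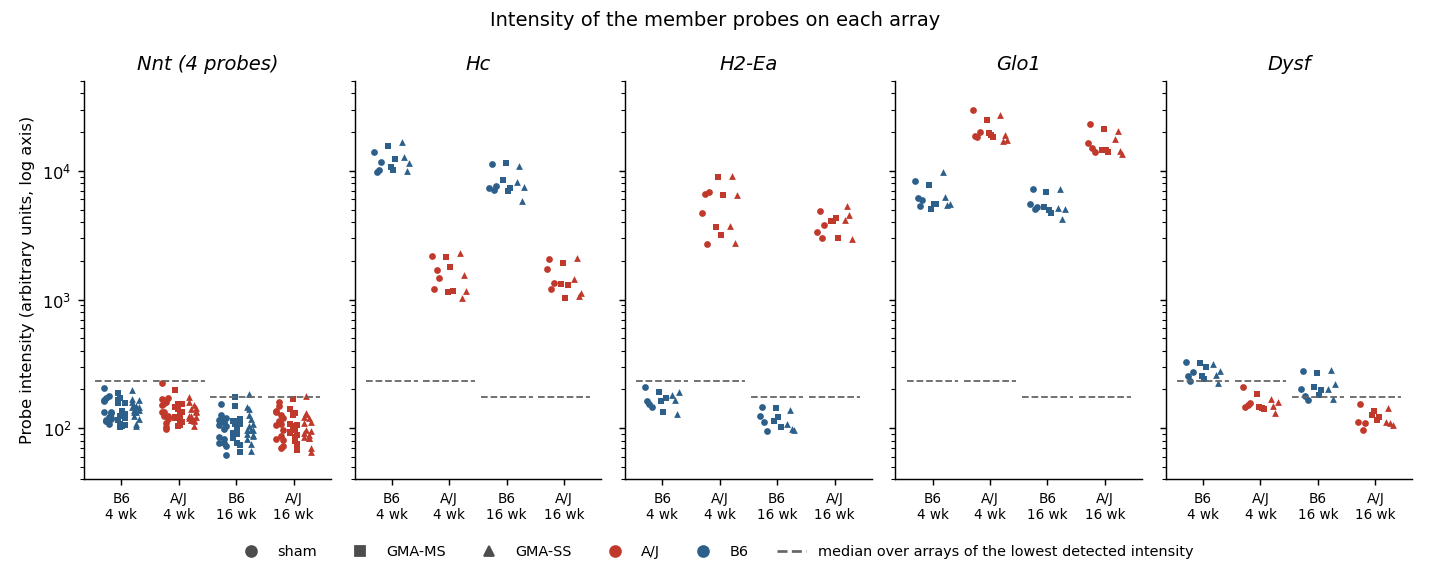
Intensity (arbitrary units, log axis) of the member probes on each of the 48 arrays, by strain and time, with 1 point per probe and array, marker shape for exposure and a dashed line at the median over arrays of the lowest detected intensity. Nnt lies near or below the dashed lines in both strains, Hc is higher in B6, H2-Ea and Glo1 are higher in A/J, and Dysf lies near the line in B6 and below it in A/J.

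Hc, complement C5, was lower in A/J. At 4 weeks, Hc read 14060, 9762, 10260 and 11650 in B6 sham lungs and 2187, 1206, 1702 and 1459 in A/J sham lungs. After GMA-MS fume, Hc read 15550, 10670, 10130 and 12380 in B6 and 2135, 1143, 1790 and 1168 in A/J lungs at that time. After GMA-SS fume, Hc read 16760, 12900, 10070 and 11630 in B6 and 2292, 1020, 1558 and 1170 in A/J lungs at that time. The lowest B6 array of that time was thus above the highest A/J array, 9762 against 2292, in every exposure. The difference was -3.03 (SE 0.19) in sham, -3.31 in GMA-MS and -3.27 in GMA-SS lungs, or 8.16-fold (95% interval 6.16 to 10.8), 9.93-fold (7.5 to 13.1) and 9.63-fold (7.28 to 12.7) lower in A/J (limma adjusted p of 3.58e-11, 7.57e-12 and 9.23e-12). At 16 weeks, Hc read 7410, 11310, 7164 and 7595 in B6 sham lungs and 1730, 2058, 1213 and 1352 in A/J sham lungs. With GMA-MS, Hc then read 8478, 11550, 6987 and 7400 in B6 and 1318, 1934, 1036 and 1303 in A/J lungs. With GMA-SS, Hc then read 8273, 10830, 5844 and 7453 in B6 and 1451, 2091, 1073 and 1127 in A/J lungs. The groups again lay apart, the lowest B6 array at 5844 and the highest A/J array at 2091. At 16 weeks the difference was -2.45 (SE 0.11) in sham, -2.79 in GMA-MS and -2.61 in GMA-SS lungs, or 5.47-fold (4.68 to 6.38), 6.92-fold (5.92 to 8.08) and 6.11-fold (5.23 to 7.14) lower in A/J (limma adjusted p of 2.91e-14, 2.86e-15 and 9.49e-15). The A/J transcript was still detected on all 24 A/J arrays, at 1020 to 2292. Hc is made mainly in liver. Of the 5 liver markers, Alb, Fgb and Serpina1a were detected on 0 arrays and Ttr only in B6 at 16 weeks, while Apoa1 passed the filter (medians of 308.1 in A/J and 293.6 in B6 sham lungs at 4 weeks). The list had mean log2 levels of 6.92 to 7.04 in A/J and 6.90 to 7.03 in B6 at 4 weeks and of 7.07 to 7.35 and 7.06 to 7.25 at 16 weeks, and its part in the Hc values was not tested.

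The strain difference of Hc was smaller at 16 weeks than at 4 weeks. With all 48 arrays normalized together, the mean log2 level over exposures was 10.19 at 4 and 10.46 at 16 weeks in A/J, and 13.34 and 13.13 in B6, so that the strain difference changed by 0.48 (SE 0.13, 95% interval 0.22 to 0.75, limma adjusted p = 0.0443). This was 1 of 4 members tested for it, where 1.75% of all 12223 probes were called. Glo1 changed by -0.02 (SE 0.05, 95% interval -0.13 to 0.09). For H2-Ea and Dysf, not called, 1 strain was below detection at both times, so that the fit gives no measure of a change. The Hc call lies at the threshold: it was lost when any 1 of 34 of the 48 arrays was left out, with values over all 48 from 0.43 to 0.54 and adjusted p from 0.0145 to 0.0728, and with no filter (adjusted p = 0.0727) or scaling to the median of detected probes (adjusted p = 0.071). With the beadchip as a block the adjusted p was 0.00116. That block takes the strain difference as equal on all beadchips of a time. At 4 weeks the difference, averaged over exposures, was -2.90 and -2.96 on beadchips 1 and 3 and -3.51 and -3.44 on 2 and 4. Arrays that share a beadchip were thus not independent for this change, and the p-value may be too small. The times lie on different beadchips, and each strain difference was taken within the beadchips of its time.

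H2-Ea, the class II alpha chain, was read clearly in every A/J lung and in no B6 lung. At 4 weeks, H2-Ea read 4687, 6616, 2699 and 6903 in A/J sham lungs and 209.6, 163.6, 153.5 and 145.6 in B6 sham lungs. After GMA-MS fume, H2-Ea read 3661, 8978, 3184 and 6527 in A/J and 192.8, 162.2, 134.4 and 172 in B6 lungs at that time. After GMA-SS fume, H2-Ea read 3750, 9077, 2765 and 6552 in A/J and 180.7, 165.4, 129 and 190.3 in B6 lungs at that time. It was detected on all 12 A/J arrays of that time and on 0 of 12 B6 arrays. As B6 gave only a bound, the A/J level was at least 27.6-fold higher in sham, at least 26.3-fold in GMA-MS and at least 28.3-fold in GMA-SS lungs. These bounds were computed against the lowest detected level of each B6 array and were not tested themselves. The limma adjusted p of 1.47e-10, 1.8e-10 and 1.32e-10 are those of the fitted differences, which set A/J against B6 values below detection. At 16 weeks, H2-Ea read 3369, 4897, 2999 and 3834 in A/J sham lungs and 124.1, 146.6, 111.7 and 95.68 in B6 sham lungs. With GMA-MS, H2-Ea then read 4117, 4052, 4325 and 2993 in A/J and 113.9, 144.8, 122.8 and 102.7 in B6 lungs. With GMA-SS, H2-Ea then read 4164, 5362, 4562 and 2943 in A/J and 107, 139.5, 99.12 and 96.01 in B6 lungs. Detection was the same, 12 of 12 A/J and 0 of 12 B6 arrays. The bounds were at least 22.0-fold, at least 22.6-fold and at least 24.8-fold higher in A/J. The fitted differences, again set against values below detection, had limma adjusted p of 1.73e-18, 1.58e-18 and 7.55e-19.

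At 4 weeks, H2-Ea and Hc differed between beadchips within A/J. H2-Ea had a mean normalized log2 level over the 3 A/J arrays of 11.55 and 11.52 on beadchips 1 and 3 and of 13.00 and 12.75 on beadchips 2 and 4, while the B6 means, all below detection, ran from 6.90 to 6.96. Hc went the other way in A/J, with 10.63 and 10.66 on beadchips 1 and 3 and 9.88 and 10.12 on 2 and 4, and its B6 means ran from 13.40 to 13.61. The strain difference of Hc within a beadchip, averaged over exposures, was -3.51 to -2.90 at 4 weeks and -2.78 to -2.47 at 16 weeks. For H2-Ea no such difference is given, since B6 was below detection throughout. Every 1 of the 12 pairs of arrays that shared a beadchip and an exposure kept the direction at each time for Hc and Glo1. The share of all probes that did so was not computed, so nothing particular to them is read from this. For H2-Ea and Dysf 1 strain was below detection, so their pairs are not counted. What set beadchips 2 and 4 apart was not tested.

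**Figure D2:**
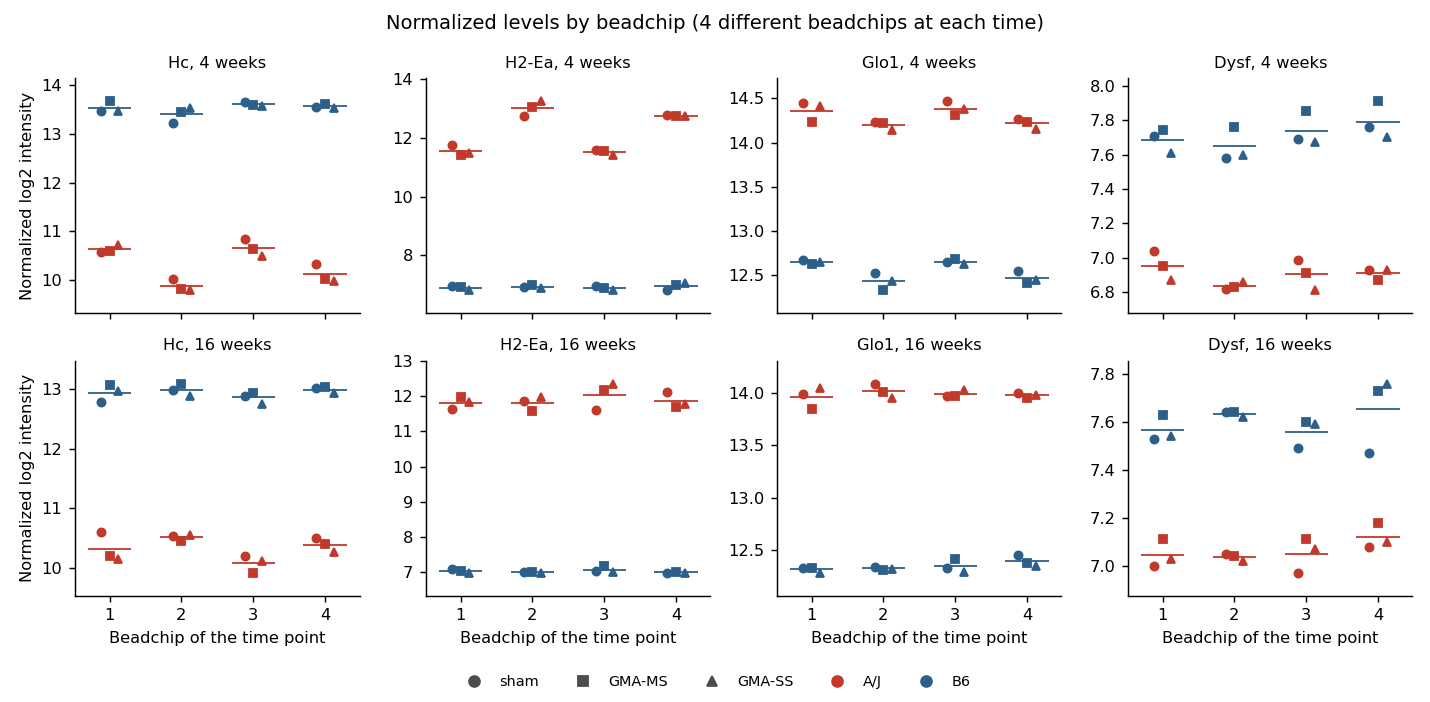
Normalized log2 intensity of Hc, H2-Ea, Glo1 and Dysf by beadchip at 4 weeks (upper row) and 16 weeks (lower row), with 1 point per array, marker shape for exposure and a line at the mean of the 3 arrays of a strain. In A/J at 4 weeks H2-Ea sits near 13.00 and 12.75 on beadchips 2 and 4 and near 11.55 and 11.52 on 1 and 3, while the strains stay apart on every beadchip.

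Glo1, glyoxalase 1, was higher in A/J. At 4 weeks, Glo1 read 29750, 18640, 18370 and 20220 in A/J sham lungs and 8418, 6130, 5321 and 5953 in B6 sham lungs. After GMA-MS fume, Glo1 read 24840, 19740, 19140 and 18340 in A/J and 7732, 5027, 5571 and 5545 in B6 lungs at that time. After GMA-SS fume, Glo1 read 27160, 17050, 18950 and 17510 in A/J and 9809, 6228, 5421 and 5569 in B6 lungs at that time. No B6 array, at most 9809, reached the lowest A/J array, 17050. The difference was 1.75 in sham, 1.74 in GMA-MS and 1.73 in GMA-SS lungs (SE 0.09 each), or 3.37-fold (95% interval 2.97 to 3.82), 3.33-fold (2.94 to 3.78) and 3.31-fold (2.92 to 3.75) higher in A/J (limma adjusted p of 3.24e-13, 3.95e-13 and 4.25e-13). At 16 weeks, Glo1 read 16460, 23360, 15040 and 14060 in A/J sham lungs and 5515, 7286, 5054 and 5241 in B6 sham lungs. With GMA-MS, Glo1 then read 14540, 21330, 14560 and 14130 in A/J and 5206, 6841, 4946 and 4717 in B6 lungs. With GMA-SS, Glo1 then read 17630, 20370, 14220 and 13620 in A/J and 5140, 7288, 4218 and 5023 in B6 lungs. The groups lay apart here as well, 13620 as the lowest A/J and 7288 as the highest B6 array. The difference was 1.65, 1.59 and 1.70 (SE 0.04 each), or 3.14-fold (2.95 to 3.35), 3.01-fold (2.82 to 3.21) and 3.24-fold (3.04 to 3.45) higher in A/J (limma adjusted p of 3.1e-18, 6.65e-18 and 1.98e-18). Within a beadchip the mean difference was 1.71 to 1.76 at 4 weeks and 1.59 to 1.70 at 16 weeks, a narrower range than that of Hc at each time.

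Of the other genes of the duplicated segment, only Dnah8 was called higher in A/J, in 1 of the 6 comparisons. Btbd9, which flanks Glo1 and is only partly inside the segment, was detected on all 48 arrays and was called in none of the 6 comparisons (differences of -0.07 in sham lungs at both times and -0.18 to -0.02 in the others). Dnah8, an axonemal dynein heavy chain, was detected on all 48 arrays and went both ways: -0.34 (SE 0.10, limma adjusted p = 0.0219) in GMA-SS lungs at 4 weeks and 0.26 (SE 0.08, adjusted p = 0.0198) in GMA-MS lungs at 16 weeks, with -0.23 and 0.09 in sham lungs, neither called. Glp1r, the receptor of glucagon-like peptide 1, was detected on 0 of 48 arrays (115 to 262.2). The median of the 2 tested genes was -0.26 to 0.11, beside medians of 0.00 to 0.03 over all tested probes.

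Dysf, dysferlin, was dim in both strains and dimmer in A/J. At 4 weeks, Dysf read 327.3, 253.1, 230.8 and 272 in B6 sham lungs and 208.3, 145.6, 152.5 and 156.2 in A/J sham lungs. After GMA-MS fume, Dysf read 319.7, 253.4, 240.2 and 298.5 in B6 and 185.8, 146.4, 143.3 and 142.2 in A/J lungs at that time. After GMA-SS fume, Dysf read 316.8, 258.1, 225.2 and 277.4 in B6 and 169.8, 150, 132.1 and 159 in A/J lungs at that time. The arrays of the strains did not overlap within an exposure, yet only 3 of 12 B6 arrays, all GMA-MS, and 0 of 12 A/J arrays were detected. In the sham and GMA-SS lungs no fold is given, since both strains were below detection. In GMA-MS lungs the B6 mean was 1.23-fold above the lowest detected level of the A/J arrays. That mean includes a B6 array below detection, so it gives no firm lower bound. At 16 weeks, Dysf read 201.9, 276.8, 178.2 and 164.4 in B6 sham lungs and 111.7, 153.6, 97.11 and 109.5 in A/J sham lungs. With GMA-MS, Dysf then read 209, 269.7, 181.3 and 198.9 in B6 and 126.7, 137.1, 115.3 and 123.3 in A/J lungs. With GMA-SS, Dysf then read 202.1, 282.4, 170.1 and 219.2 in B6 and 112.5, 144, 109.2 and 105.1 in A/J lungs. Here 5 of 12 B6 arrays (1 sham, 3 GMA-MS and 1 GMA-SS) and 0 of 12 A/J arrays were detected. The fitted difference was -0.51, -0.54 and -0.57 (SE 0.05 each, limma adjusted p of 5.41e-08, 2.13e-08 and 7.37e-09). It set B6 against A/J values below detection, and Dysf passed the filter only through B6 arrays. In sham, GMA-MS and GMA-SS lungs the B6 means were 1.03-fold, 1.06-fold and 1.10-fold above the lowest detected level of the A/J arrays. These means include B6 arrays below detection, so they give no firm lower bound on the strain difference. The calls of Dysf were lost when arrays were scaled to the median of detected probes in place of quantile normalization (adjusted p up to 0.808). With a filter on all 4 arrays of a group Dysf was not tested. Dysferlin is abundant in skeletal muscle, and the muscle markers, which spread over both strains, had medians of -0.08 to 3.11 (A/J minus B6) across the comparisons. Their part in the Dysf values was not tested.

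Nnt was not measurable on these arrays. Its 4 probes were detected on 0 of 48 arrays, and the 192 values ran from 61.57 to 224 (median 117.2) with a lowest detection p-value of 0.045. The brightest by its median over all arrays, ILMN_1226968, read 134.2 to 204.8 in B6 and 141.6 to 224 in A/J at 4 weeks and 108.1 to 184.6 and 106.5 to 178.3 at 16 weeks. The dimmest by its median over all arrays, ILMN_1213535, read 102.2 to 161.6 and 99.29 to 134 at 4 weeks and 72.9 to 116.9 and 70.04 to 131.9 at 16 weeks. The strains overlapped for all 4 probes in all 6 comparisons. In a limma fit without the detection filter, 0 of the 24 differences were called and 0 had an unadjusted p under 0.05 (-0.03 to 0.08, lowest adjusted p 0.263), where 9.39%, 10.6% and 9.52% of all 24613 probes were called in sham, GMA-MS and GMA-SS lungs at 4 weeks and 14.1%, 13.6% and 14.1% at 16 weeks. As no level stood above background in A/J, which carries an intact gene, a loss in B6 could not have been seen with these probes.

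**Figure D3:**
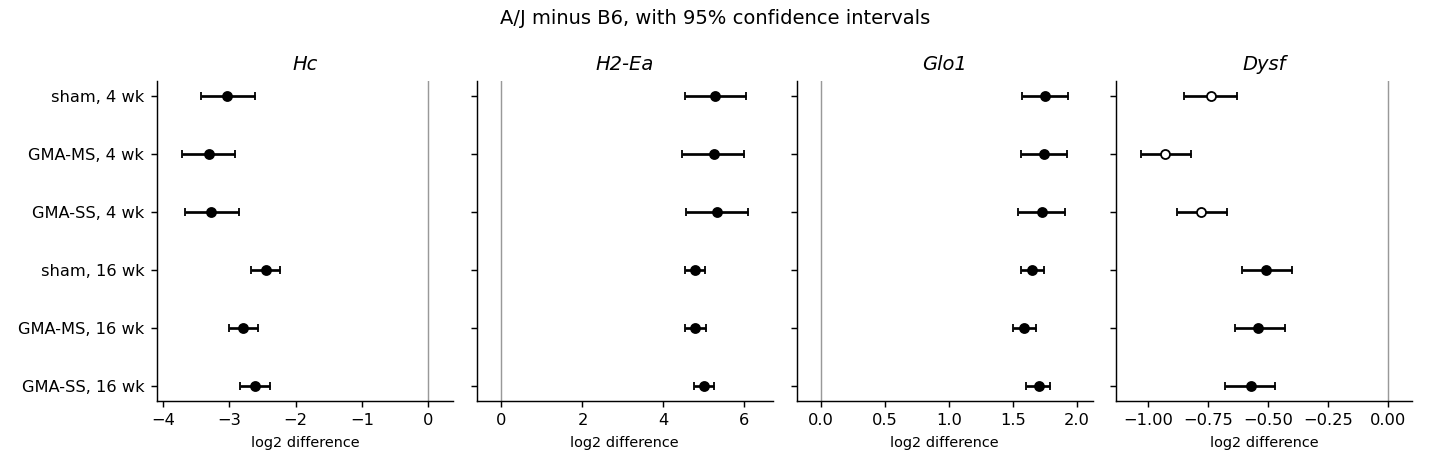
Fitted A/J minus B6 difference (log2) of Hc, H2-Ea, Glo1 and Dysf in the 3 exposures at 4 and 16 weeks, with 95% confidence intervals. Open points, all of Dysf at 4 weeks, did not pass the detection filter; H2-Ea in B6 and Dysf in A/J were below detection, so their fitted values are no measure of the fold. Hc runs from -3.31 to -2.45 and Glo1 from 1.59 to 1.75.

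No member that could be tested was called between fume and sham. In limma, 0 of 3 tested members were called at 4 weeks and 0 of 4 at 16 weeks in any comparison of fume with sham. Nnt was not tested, and H2-Ea in B6 and Dysf in A/J were below detection in both groups compared. The shares of all probes called were small as well, so that these counts say nothing particular to the members: at 4 weeks 0.12% for GMA-MS and 0.241% for GMA-SS in A/J and 0.0516% and 0.043% in B6, and at 16 weeks 0.0% and 0.429% in A/J and 0.202% and 0.0% in B6. The 2 comparisons with 0 calls, GMA-MS in A/J and GMA-SS in B6 at 16 weeks, held 968 and 465 probes with an unadjusted p under 0.05. Of the members that passed the filter only Dysf had one in the fit without a block, in B6 GMA-MS lungs at 16 weeks, at 0.11 (SE 0.05, adjusted p = 0.486). In the fit without the filter, Dysf gave 0.13 (SE 0.05, adjusted p = 1.0) in the same comparison at 4 weeks, and the Nnt probe ILMN_1226968 gave -0.17 (SE 0.07, adjusted p = 0.924) in A/J GMA-SS lungs at 4 weeks, where it was below detection, both with an unadjusted p under 0.05. With the beadchip as a block in limma, Hc in A/J at 16 weeks also had an unadjusted p under 0.05. It gave -0.22 (SE 0.08, adjusted p = 0.248) after GMA-MS and -0.19 (SE 0.08, adjusted p = 0.467) after GMA-SS. So did Glo1 in A/J GMA-MS lungs at 4 weeks, at -0.10 (SE 0.05, adjusted p = 0.306). In the fit without a block, the 95% intervals for Glo1 spanned -0.28 to 0.12 at 4 weeks and -0.16 to 0.09 at 16 weeks. For Hc they spanned -0.60 to 0.51 and -0.44 to 0.35. For H2-Ea in A/J they spanned -0.78 to 0.79 at 4 weeks, where the beadchips differed, and -0.20 to 0.44 at 16 weeks. The model pools the spread of all groups of a time. The standard deviation of H2-Ea (log2) was 0.63 to 0.91 in A/J against 0.06 to 0.12 in B6 at 4 weeks. At 16 weeks it was 0.24 to 0.27 against 0.01 to 0.07, so these intervals are too narrow for A/J.

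**Figure D4:**
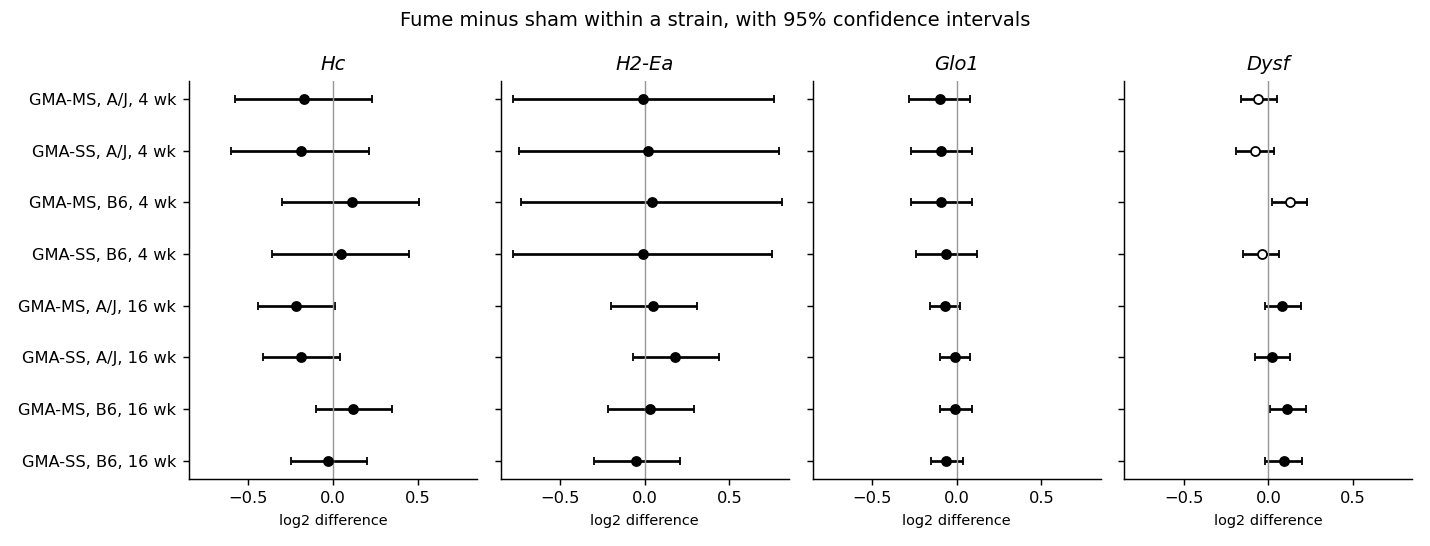
Fitted fume minus sham difference (log2) of Hc, H2-Ea, Glo1 and Dysf in each strain and time, with 95% confidence intervals and open points where the probe did not pass the filter. No member was called; the widest intervals are those of H2-Ea at 4 weeks, from -0.78 to 0.81, and H2-Ea in B6 and Dysf in A/J were below detection in both groups compared.

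The size of the fume effect was also compared between the strains. In limma, 0 of 3 members at 4 weeks and 0 of 4 at 16 weeks differed in it, where 0.0172% (GMA-MS) and 0.0% (GMA-SS) of all probes were called at 4 weeks and 0.168% and 0.0253% at 16 weeks. The GMA-SS comparison with 0 calls held 221 probes with an unadjusted p under 0.05. Among the members that passed the filter only Hc had one, in the GMA-MS comparison at 16 weeks, at -0.34 (SE 0.15, 95% interval -0.66 to -0.02, adjusted p = 0.677). Its parts were -0.22 (SE 0.11) in A/J and 0.12 (SE 0.11) in B6, neither called. With the beadchip as a block in limma, this Hc comparison gave -0.34 (SE 0.11, adjusted p = 0.189). It was not called there, with an unadjusted p again under 0.05. Without the filter, Dysf in the GMA-MS comparison at 4 weeks, with A/J below detection, also had one, at -0.19 (SE 0.07, adjusted p = 1.0).

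The 5 nearest measured genes on each side of a member were read in RefSeq order, 9 in all for Nnt. Of all tested probes 18.2% to 26.8% were called in a strain comparison, and the counts of neighbours were not tested against that share. Beside Hc 0 to 2 of 10 were called in a comparison, the largest difference being 0.27 to 0.72 in size, and its nearest neighbours Traf1 and Rab14 gave 0.04 and 0.20 in sham lungs at 4 weeks, neither called. Beside Glo1 2 to 5 of 10 and beside Dysf 1 to 4 of 10 were called. The nearest to Dysf, Zfp638 and Cyp26b1, gave 0.01 (SE 0.08) and -0.67 (SE 0.66) in sham lungs at 4 weeks, neither called. Beside H2-Ea 6 of 10 were called in each comparison, H2-Eb1 lower (-0.95, SE 0.11) and Notch4 higher (0.47, SE 0.14) in A/J sham lungs at 4 weeks. Over all tested probes the median size of a difference was 0.11 to 0.14. Near Nnt, Fgf10 gave -0.25 (SE 0.06, called) and Paip1 0.06 (SE 0.23, not called) in the same lungs, and 3 to 5 of 9 neighbours were called.

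Emb, named here after its values were seen, had the widest strain difference among the neighbours of all 5 members. It encodes embigin, a membrane glycoprotein of the immunoglobulin family, and is the third measured gene before Nnt. In sham lungs it read 6652 to 11380 in B6 and 149.3 to 224.5 in A/J at 4 weeks and 8367 to 12810 and 104.6 to 227 at 16 weeks. It was detected on all B6 and on 0 A/J arrays of every comparison, and B6 was at least 46.1-fold to at least 55.7-fold higher. Whether a sequence difference under its probe, or under that of any gene named here, sets such a value was not tested, since probe sequences were not used here.

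**Figure D5:**
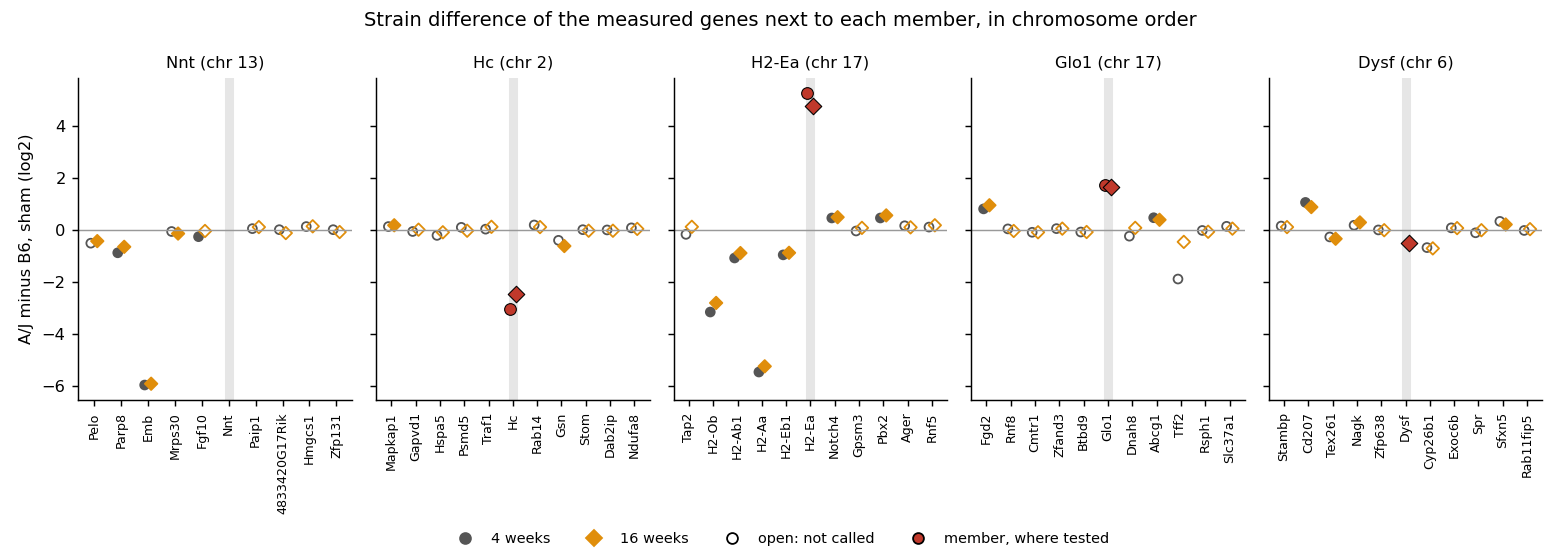
A/J minus B6 difference (log2) in sham lungs of the measured genes on each side of a member, in chromosome order, at 4 weeks (circles) and 16 weeks (diamonds); filled points were called, open points were not, and red points are the member. Of the neighbours, Emb near Nnt and H2-Aa near H2-Ea (-5.46 and -5.24) lie farthest from 0 and those of Hc stay within 0.61 of 0, while Emb, H2-Ob and Dysf (below detection in A/J) and H2-Ea (below detection in B6) are plotted at fitted values that are no measure of the fold.

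Most other class II genes were lower in A/J, where H2-Ea was higher. Of 9 measured genes of the list (the class II chains, the DM and O chains, the invariant chain Cd74 and the transactivator Ciita), 6 were lower in A/J in 5 of the comparisons and 7 in GMA-MS lungs at 4 weeks, and 1, H2-DMb1 (0.43, SE 0.15), was higher in GMA-SS lungs at 16 weeks. Of all tested probes 18.2% to 26.8% were called in a strain comparison, in either direction. The list median was -1.17 to -0.59, beside 0.00 to 0.03 over all tested probes. H2-Aa, the alpha chain of I-A, read 387.7 to 717 in A/J and 16270 to 23820 in B6 sham lungs at 4 weeks, 44.1-fold lower in A/J (-5.46, SE 0.17, limma adjusted p = 5.97e-17). H2-Ob, a chain of the DO modulator, was detected on all B6 and on 0 A/J arrays and was at least 5.16-fold lower in A/J in the same lungs. It passed the filter only through B6 arrays, so its place in the counts was in part fixed by the filter. H2-DMa, of the peptide exchange factor DM, and H2-Ab1, the beta chain of I-A, were lower by 2.63-fold and 2.10-fold. Cd74 (-0.10, SE 0.23) and Ciita (-0.16, SE 0.20) were not called there. The B cell markers, which read lower in A/J, are given above, and their part in these values was not tested. Whether sequence differences under the class II probes, that of H2-Aa included, set part of these values was not tested either.

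The pathway lists of the other members were small, and their counts stand beside the 18.2% to 26.8% of all tested probes called, with nothing particular to a list read from them. Of 7 tested complement genes 1 or 2 were lower in A/J and 0 higher in each comparison: C6, the next component of the membrane attack complex, was 1.79-fold lower (-0.84, SE 0.10, limma adjusted p = 1.51e-06) and C1qb, of the initiator C1q, 1.47-fold lower (-0.56, SE 0.15, adjusted p = 0.0122) in sham lungs at 4 weeks. The receptors of C5a, C5ar1 and C5ar2, did not pass the filter. Of 11 tested genes of mitochondrial NADPH and peroxide removal 0 to 2 were higher and 0 to 2 lower, among them Glrx2, a mitochondrial glutaredoxin, at 0.48 (SE 0.13) and Prdx3, a mitochondrial peroxiredoxin, at -0.39 (SE 0.11) in those lungs. Of 8 tested genes around glyoxalase and glutathione 0 or 1 was higher and 0 lower. It was Gss, glutathione synthetase, in sham lungs at 4 weeks (0.27, SE 0.07) and 16 weeks (0.17, SE 0.06), and Akr1b8, an aldo-keto reductase, in GMA-SS lungs at 16 weeks (0.36, SE 0.12). Hagh, the second enzyme of the glyoxalase pathway, gave 0.13 (SE 0.07) there and was not called. Of the ferlins and membrane repair genes 7 or 8 were tested, of which 1 or 2 were higher and 1 lower in each comparison: Ahnak (0.49, SE 0.14) and Anxa1 (0.35, SE 0.12) higher and Anxa5 (-0.25, SE 0.08) lower in A/J sham lungs at 4 weeks. List medians of these 4 lists ran from -0.23 to 0.11, beside 0.00 to 0.03 over all tested probes.

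The probes most like each member over the 48 arrays were named by Pearson correlation, as a description. As all points fall into clusters by strain, and arrays of a beadchip share a scan, the pooled values mostly restate the strain difference, and the correlation around group means is given beside them. For Hc these were Psmd8 (0.991, and 0.798 around group means), Abhd16a (0.988 and 0.602) and Il6st (0.987 and 0.186). For H2-Ea they were H2-D1 (0.992 and 0.624), Baiap2l1 (0.990 and 0.624) and Gbp2b (0.986 and 0.377). For Glo1 they were Abhd1 (0.992 and 0.688), H2-D1 (0.989 and -0.362) and Alad (0.988 and 0.584), and for Dysf Il6st (0.977 and 0.442), Fcer1g (0.975 and 0.038) and Sec24d (0.974 and 0.291). Only H2-D1, with H2-Ea and Glo1, shared a chromosome with its member.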

How the data were processed

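Total RNA of whole lung was labelled and hybridised by the authors to Illumina MouseRef-8 v1.1 arrays, and the deposited tables give for each probe an unnormalized intensity, its standard error and number of beads, and a detection p-value per array. A second deposited table holds log2 values that the authors made with lumi, by forced-positive background correction, variance stabilization and robust spline normalization (each time apart, as the values show), and it was used as an alternative. Strain and fume comparisons were computed here from the intensities of the 24 arrays of a time, and the change of the strain difference with time from all 48 arrays.

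Background was corrected with limma (version 3.58.1, R 4.3.3) by normexp (offset 16), whose negative controls limma inferred from detection, followed by quantile normalization and log2. The 24617 rows held 24613 probes, and 4 probes listed in duplicate were averaged. Probes with a detection p under 0.01 on at least 4 arrays of a time were tested, with 1 model over all groups of that time (lmFit and eBayes) and Benjamini-Hochberg adjustment over all tested probes. A probe was called at an adjusted p under 0.05. Where a strain was below detection on all arrays of a group, its level was replaced by the higher of its own value and the lowest detected value of each array, which gives the bounds.

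Gene names came from the platform annotation, with 20984 probes of 1 symbol, 1 of several and 3628 of none, and 20968 were matched to RefSeq by Entrez ID. Named were all probes of the members, the nearest measured gene on each side, the genes of the Glo1 segment, up to 4 called genes a list with the widest difference in sham lungs at 4 weeks, and the 3 probes most like each member. The members and lists were chosen with earlier results of these data known. The authors placed 1 sample of each group of a time on each beadchip, and the replicate number is the beadchip. Deviations from group means correlated on average at 0.242, 0.403, 0.332 and 0.297 within the beadchips at 4 weeks (-0.108 between) and at 0.0495, 0.203, 0.163 and 0.0702 at 16 weeks (-0.0407 between). The labels do not say whether the 4 arrays of a group were single mice, so p-values measure the spread between these samples. The number of arrays and beads limits the precision. The fit of the strain difference in sham lungs at 4 weeks was tested on simulated data. The simulated noise was independent between arrays, with no beadchip effect, and the other comparisons were not checked in this way. The alternatives were no background correction, the deposited log2 values, scaling to the median of detected probes, no filter, a filter on all 4 arrays of a group, the beadchip as a block, an intensity trend with robust variance, only the groups compared, and each array left out.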

Additional observations from a re-analysis of the deposited data

Results flagged for a closer look

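Within groups of 4 arrays, 1 array lay far from the others in 2 of 48 tests of a member in a group, where chance gives about 1 in 20. Glo1 in B6 sham lungs at 16 weeks was 12.45 (normalized log2) on replicate 4 and 12.33 to 12.34 on the others, a gap of 0.886 of the range. H2-Ea in B6 GMA-SS lungs at 16 weeks was 7.01 on replicate 3 and 6.98 on the others, a gap of 0.906 of the range, with all 4 arrays below detection.

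The strain difference of Hc was called as changed between the times, by 0.48 (SE 0.13, limma adjusted p = 0.0443) at 16 weeks against 4 weeks, by a test of the change itself. This call lies at the threshold and was lost when any 1 of 34 of the 48 arrays was left out. It was also lost in limma with no filter (adjusted p = 0.0727) and with scaling to the median of detected probes (adjusted p = 0.071). The times lie on different beadchips.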

How the results depend on the processing

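Of 1330 recomputed values of members, 1291 kept their side of the threshold, 39 lost a call and 0 gained one or turned direction while called. Of 333 strain differences 330 kept their call. The 3 others were Dysf at 16 weeks under scaling to the median of detected probes, at -1.70 (adjusted p = 0.0958), -0.55 (0.808) and -0.85 (0.553) in sham, GMA-MS and GMA-SS lungs, and the cause was not tested. With the filter on all 4 arrays of a group, Dysf did not pass and was not tested. It was detected on at most 3 arrays of a group, and these counts leave it out there. The number of members called for the change with time, 1, fell to 0 under that scaling and without a filter, and was 0 to 1 when 1 array was left out. With all alternatives and arrays left out, strain differences ran from -3.43 to -2.31 for Hc and 1.57 to 1.82 for Glo1. The fitted values of H2-Ea (3.52 to 5.90) and Dysf (-1.70 to -0.35) are set against a strain below detection.

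With the beadchip as a replicate block, no member lost or gained a call. Counts over all probes moved more. For the strains at 4 weeks the block gave 3556, 4167 and 3616 calls in sham, GMA-MS and GMA-SS lungs, against 2121, 2455 and 2194, and scaling to the median gave 881, 1156 and 914. At 16 weeks the counts of 3190, 2999 and 3152 became 3812, 3815 and 3750 with the block and 2114, 1547 and 1670 with that scaling. For fume at 4 weeks, GMA-MS and GMA-SS gave 14 and 28 calls in A/J (92 and 63 with the block, 1 and 7 with the scaling, 3 to 35 and 21 to 43 without 1 array) and 6 and 5 in B6 (43 and 17 with the block, 3 to 7 and 4 to 8 without 1 array). In B6 the lowest counts were 0 for GMA-MS, with only the groups compared, and 3 for GMA-SS, with the scaling. At 16 weeks GMA-SS in A/J gave 51 calls (53 with the block, 15 with only the groups compared, 29 to 55 without 1 array) and GMA-MS in B6 gave 24 (91 with the block, 4 with the scaling, 13 to 31 without 1 array), while GMA-MS in A/J gave 0 to 3 and GMA-SS in B6 0 to 1 over all alternatives. The strains differed in the GMA-MS effect for 2 probes at 4 weeks and 20 at 16 weeks (14 and 50 with the block, 1 and 1 with the scaling). In the GMA-SS effect they differed for 0 and 3 probes, with up to 1 and 16 without 1 array. The change with time had 214 calls (595 with the block, 35 with the scaling). Fits of only the groups compared were not run for it, since it compares all groups.

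Dysf and Nnt lie at or below the lowest detected intensity, which limits what these arrays show of them.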
